A study of Mus musculus with 12 samples.

Results

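The response of mouse myoblasts to endoplasmic reticulum (ER) stress was compared gene by gene between control cells and a population in which Cebpg was knocked down. The measure was a difference of differences: the log2 change with thapsigargin in knockdown cells minus the log2 change with thapsigargin in control cells. A negative value means that a gene gained less, or lost more, with thapsigargin in the knockdown cells, and a positive value means the reverse. All 12 libraries entered it, and 15828 of the 53801 gene identifiers in the counts passed the filter on low counts and were tested, while the other 37973 were not. The knockdown effect in either treatment alone and the thapsigargin effect in either population alone are given only to say which groups carry a difference.

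The cells were C2C12, a mouse myoblast line. The 4 groups were control cells given DMSO, the solvent, control cells given thapsigargin, knockdown cells given DMSO and knockdown cells given thapsigargin, each for 6 h and each with 3 libraries. The knockdown carries 1 label, Sh2, and the labels do not name what the control population received, so an effect of losing Cebpg cannot be told apart from an off-target effect or from other stable differences of the populations. HeLa cells are named in the growth protocol, against C2C12 in the source field. Replicates are not stated to be separate cultures, so the p-values cover the spread of these libraries, which may be technical. Libraries held 29.4 to 47.7 M gene reads, and 7 myoblast markers, Myod1, Myf5 and Des among them, summed to between 1636.8 and 2115.0 counts per 1 M gene reads (CPM) in every library. CPM here is scaled for library composition. It is not divided by gene length, so it compares 1 gene between groups and not genes with each other.

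Thapsigargin blocks the SERCA pump that loads calcium into the ER, and folding in the ER then fails. Cells answer through ATF6 and through IRE1 with XBP1, which raise chaperones and degradation factors, and through the kinase PERK, which slows translation while the transcription factor ATF4 is made. The PERK branch belongs to the integrated stress response, and ATF4 drives genes of amino acid supply and, with CHOP (gene Ddit3), genes of redox balance and cell death. ATF4 binds DNA as a dimer with other basic leucine zipper proteins, C/EBP gamma (gene Cebpg) among them, at a C/EBP-ATF composite element.

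Cebpg, the targeted gene (ENSMUSG00000056216, chromosome 7, 35046422 to 35056573 in GRCm38), was measured at 51.7, 51.5 and 60.6 CPM in control DMSO, and at 211.2, 219.0 and 216.3 CPM in control cells with thapsigargin. Knockdown libraries held 4.62, 3.74 and 5.18 CPM in DMSO and 6.11, 5.57 and 5.29 CPM with thapsigargin. Every knockdown library lay below every control library. The thapsigargin rise was 1.98 on the log2 scale in control cells and 0.33 in knockdown cells, and the difference of these effects was -1.66 (SE 0.13, adjusted p = 7.07e-12 by edgeR's quasi-likelihood test). The populations therefore differed more in Cebpg under thapsigargin (log2 -5.25) than in DMSO (log2 -3.59).

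The thapsigargin response differed between the populations at 5598 of the 15828 genes tested, which is 35.4% (adjusted p under 0.05). The difference was positive at 2794 genes (17.7%) and negative at 2804 genes (17.7%). List counts below are to be read beside these shares, and a count near them says nothing particular of its list. The sizes were not symmetric. A log2 difference of at least 1 in either direction was called at 859 genes (5.43%), 554 of them negative and 305 positive, and a difference of at least 2 at 196 negative and 56 positive genes. Over all genes tested the median difference was 0.01, the 5th percentile -1.22 and the 95th percentile 0.89, and the median size among called genes was 0.45. The even split depends on the scaling between libraries. With gene read totals alone in place of TMM, 75.6% of 6889 called genes were positive, and the median of all genes moved by 0.16 on the log2 scale. Values below are relative to the TMM scaling, and a list median that turns sign without it is named where it is given. For single genes, a small difference or the lack of a call may change with the scaling too. Calls were made for 39.5% of the 13508 protein-coding genes tested, 12.3% of 569 lincRNA genes and 7.85% of 497 processed pseudogenes. In bulk RNA, fewer cells of a type and less RNA per cell cannot be told apart.

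The 2 thapsigargin effects, which share no library, correlated with a Pearson r of 0.87 across genes, which are not independent replicates. The 2 effects thus went together across genes. Among called genes, the most frequent pattern in each direction was a called change of the same sign in both populations. Of the negative genes, 1195 (42.6%) rose in both populations and rose less in knockdown cells. Another 588 (21.0%) rose in control cells without a call in knockdown cells, 413 fell in both and fell more in knockdown cells, and 333 fell in knockdown cells without a call in control cells. A further 266 (9.49%) rose in control cells and fell in knockdown cells. Of the positive genes, 1284 (46.0%) fell in both populations and fell less in knockdown cells, 585 fell in control cells without a call in knockdown cells, and 200 (7.16%) fell in control cells and rose in knockdown cells. Another 362 rose by call in knockdown cells without a call in control cells, and 352 rose in both and rose more in knockdown cells.

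Choosing genes by their size in 1 population favours that population, so both choices are given. The 2556 genes that rose by at least 1 (log2) in control cells had a median rise of 2.1 there and 1.53 in knockdown cells, with 838 negative and 65 positive differences. The 2085 genes that rose by at least 1 in knockdown cells had medians of 2.28 in control and 1.93 in knockdown cells, with 311 negative and 204 positive. The 1613 genes that fell by at least 1 in control cells had medians of -1.37 and -0.94 (38 negative, 779 positive), but the 1011 genes that fell as much in knockdown cells had medians of -1.33 and -1.31 (178 negative, 216 positive). Rises were thus smaller in knockdown cells under either choice, whereas falls were smaller under 1 choice and alike in median under the other.

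The knockdown effect itself, read in each treatment, shows where the populations parted. Of the negative genes, 884 (31.5%) did not differ by call in DMSO and were lower in knockdown cells with thapsigargin, and 668 were lower in both treatments and more so with thapsigargin. A further 517 (18.4%) were higher in knockdown cells in DMSO without a call with thapsigargin, and 425 (15.2%) were higher in DMSO and lower with thapsigargin. Of the positive genes, 848 (30.4%) were higher in knockdown cells with thapsigargin without a call in DMSO. Another 690 (24.7%) were lower in DMSO without a call with thapsigargin, and 515 (18.4%) were higher in both treatments. The effect turned from lower in DMSO to higher with thapsigargin at 389 (13.9%). A difference on the log2 scale need not hold in CPM, and for 88 negative and 104 positive genes the difference of differences in CPM had the opposite sign.

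The C/EBP family itself was split, with 3 negative and 2 positive calls among the 5 members tested. Cebpb, which encodes a relative induced in many stresses, was at 49.8, 48.6 and 49.4 CPM in control DMSO, 81.0, 84.5 and 109.0 with thapsigargin, 41.2, 44.1 and 40.4 in knockdown DMSO and 51.8, 56.0 and 58.8 in knockdown cells with thapsigargin (log2 difference -0.49, SE 0.12, adjusted p = 0.00384). The thapsigargin groups did not overlap. Cebpa, which encodes the founding member of the family, moved the other way. It was at 24.5, 25.8 and 25.3 CPM in control DMSO and fell to 5.62, 6.15 and 7.14 CPM with thapsigargin, while knockdown cells were low in both treatments, at 4.69, 4.27 and 3.38 CPM in DMSO and 4.88, 5.18 and 4.17 CPM with thapsigargin. Its positive difference (2.2, SE 0.16, adjusted p = 6.58e-13) thus went with a level already low in knockdown DMSO. Cebpd rose by 0.67 in knockdown cells against -0.02 without a call in control cells (difference 0.69). Its unscaled reads per group were fewer in knockdown than in control cells, at 2070 against 5241 in DMSO and 3286 against 5611 with thapsigargin.

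Genes listed for the ATF4 and CHOP branch, effectors as well as regulators, were mostly induced less in knockdown cells. The list was written with earlier results of these data known. Of 23 tested, 17 were negative, 1 was positive (Atf5, 0.56) and 5 had no call, with a median difference of -1.02 against 0.01 for all genes. Leaving out single libraries moved this median between -1.13 and -0.7. The medians of the thapsigargin effect were 2.51 in control and 1.91 in knockdown cells. Atf5, the positive member, was lower in knockdown cells in both treatments (log2 -1.3 in DMSO and -0.75 with thapsigargin). Atf4 was at 414.3, 437.1 and 420.6 CPM in control DMSO and 1752.5, 1777.6 and 1742.6 CPM with thapsigargin. Knockdown cells held 497.2, 494.0 and 477.9 CPM in DMSO, above the controls, and 1252.1, 1285.4 and 1257.4 CPM with thapsigargin, below them (difference -0.68, SE 0.06, adjusted p = 1.64e-11). Ddit3, which encodes CHOP, rose from 17.3, 16.8 and 16.3 CPM to 397.9, 410.2 and 408.0 CPM in control cells. Among knockdown libraries it rose from 17.0, 19.4 and 17.6 CPM to 181.2, 198.3 and 200.4 CPM (difference -1.17, SE 0.08, adjusted p = 6.86e-14). The DMSO groups overlapped for Ddit3 and the thapsigargin groups lay far apart.

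Other members of the ATF4 and CHOP list, chosen as examples after their values were seen, ranged widely. Ppp1r15a encodes GADD34, the phosphatase subunit that reverses the PERK signal, and its mean rose from 40.3 to 638.6 CPM in control cells and from 66.4 to 184.6 CPM in knockdown cells (difference -2.51, SE 0.08). Ero1l, an ER oxidase gene, differed by -2.22, with thapsigargin means of 652.4 CPM in control and 134.2 CPM in knockdown cells. Atf3, a repressor gene of the same protein family, differed by -1.82, Sesn2, an inhibitor of mTORC1 signalling, by -1.66, and Gdf15, a secreted stress cytokine, by -1.64. Chac1, a glutathione-degrading enzyme gene, differed by -1.02. Trib3, which encodes a pseudokinase that restrains ATF4, showed no call (-0.19, SE 0.13, adjusted p = 0.256), although its means were 390.5 CPM in control and 166.8 CPM in knockdown cells with thapsigargin. They were 12.7 and 6.18 CPM in DMSO, so that the populations stood apart by a similar ratio in both treatments. Ndrg1 (-0.09) and Bbc3 (0.04) had no call either. A gene can thus be lower in knockdown cells in both treatments without a called difference of effects. The reverse does not hold, as a called gene can be lower in both too. Ppp1r15b was lower in DMSO (log2 -0.45) and with thapsigargin (log2 -0.74), and its difference was called (-0.29).

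Cdsn, which encodes corneodesmosin and is in the same list, reversed. It rose from 5.83, 6.27 and 7.37 CPM to 42.7, 38.5 and 41.1 CPM in control cells and fell from 5.3, 5.66 and 6.71 CPM to 2.97, 2.37 and 1.97 CPM in knockdown cells. Its difference of -3.93 (SE 0.16, adjusted p = 1.31e-18) was the most negative of the list.

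**Figure D1:**
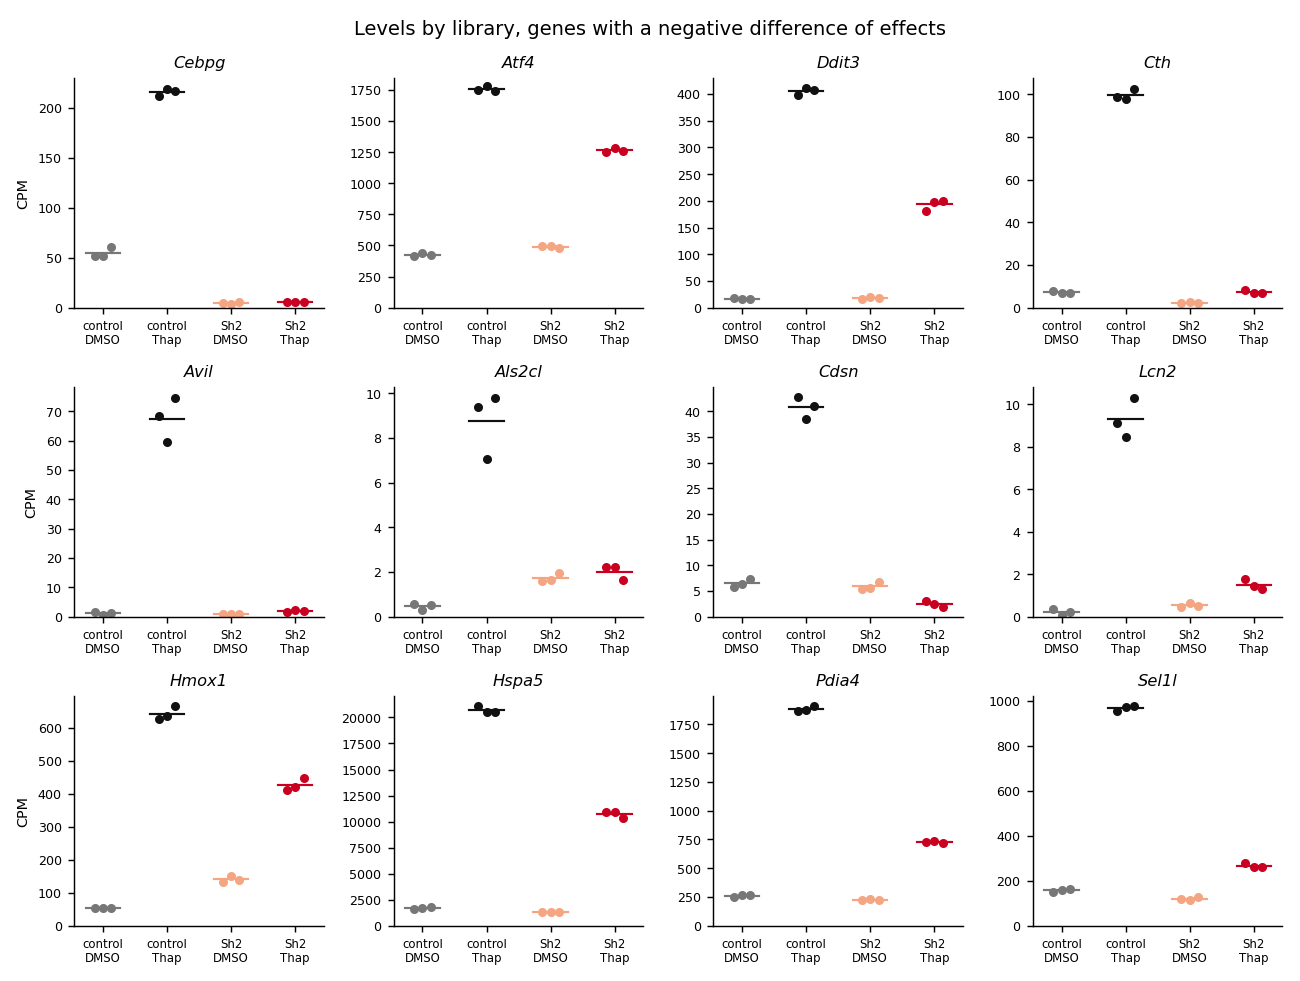
Level in CPM (vertical axes, starting at 0) of 12 genes with a negative difference of effects in each of the 12 libraries, 1 point per library with a line at the group mean. Sh2 marks knockdown cells and Thap thapsigargin. Cth, Avil and Als2cl stay low in knockdown cells with thapsigargin, while Hspa5 and Atf4 still rise there.

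Amino acid genes showed the same direction at most members. In amino acid synthesis and one-carbon metabolism 16 of 20 were negative and none positive (median -0.74), in amino acid transport 10 of 14 and none (median -0.72), and among cytosolic tRNA synthetases with the tRNA exporter Xpot 16 of 21 and none (median -0.36). Cth, which encodes the cystathionine gamma-lyase that makes cysteine, was at 7.86, 6.79 and 6.76 CPM in control DMSO and 98.9, 97.8 and 102.6 CPM with thapsigargin. In knockdown cells it was at 2.39, 2.53 and 2.31 CPM in DMSO and 8.26, 7.03 and 6.76 CPM with thapsigargin, the latter overlapping the untreated controls. The difference was -2.2 (SE 0.14, adjusted p = 5.93e-14). Got1, the cytosolic aspartate aminotransferase gene, differed by -1.33, and Phgdh, for the first step of serine synthesis, by -1.05. Psph, for the last step of that path, differed by -0.96. Asns, the asparagine synthetase gene and a textbook ATF4 target, differed by only -0.41 (SE 0.08, adjusted p = 0.000165), with thapsigargin means of 678.3 CPM in control and 304.3 CPM in knockdown cells and DMSO means of 203.1 and 121.0 CPM. Got2, Mthfd1 and Shmt1 had neither a call nor a rise with thapsigargin.

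Slc1a5, which encodes the glutamine carrier ASCT2, turned direction. It rose from 45.9, 45.7 and 48.0 to 58.2, 58.4 and 62.4 CPM in control cells and fell from 44.1, 45.6 and 39.7 to 18.0, 18.8 and 19.8 CPM in knockdown cells (difference -1.55, SE 0.08, adjusted p = 6.21e-16). Slc7a11, the cystine carrier gene, rose to a mean of 97.4 CPM in control and 17.8 CPM in knockdown cells (difference -1.1, SE 0.16), and its partner Slc3a2 to 2063.9 and 1076.6 CPM (-0.95). Slc38a2, the SNAT2 carrier gene, had a log2 change of 0.51 with thapsigargin in control and 0.05 in knockdown cells. Wars, the tryptophan tRNA synthetase gene, rose from 116.0, 119.6 and 126.1 to 569.6, 578.7 and 552.2 CPM in control cells and from 110.3, 114.5 and 109.3 to 295.7, 279.8 and 275.5 CPM in knockdown cells (difference -0.88, SE 0.06, adjusted p = 3.64e-13). Among the synthetases Aars (-0.12, adjusted p = 0.144) had no call although it rose by 1.52 in control and 1.4 in knockdown cells. Dars, Qars, Farsa and Mars had no call either.

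The composite element is the sequence these groups are best known to share, so 300-base RefSeq windows (250 bases before to 50 after each start, GRCm38.p6) were searched for TGATGNAA on both strands. Windows were found for 11250 of the genes tested, 14340 windows in all, and 2.49% of them held the motif. It was in 3.47% of windows of negative genes, 1.76% of positive genes and 2.42% of genes without a call. At a log2 difference of -1 or less it was in 27 of 503 windows (5.37%), and at 1 or more in 3 of 234 (1.28%). Among genes that rose in control cells without a called difference it was in 2.78%. In the 4 groups above, 18 genes had the motif, of which 15 were negative (median -0.85). A window without it was held by 40 genes, 27 negative (median -0.57), and 20 genes had no window, 17 of them negative. A match is a description of the letters and not evidence of binding.

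The sites below are shown because their genes span the range of differences, and capitals mark the motif in either orientation. Avil (-4.88), Atf3 (-1.82), Got1 (-1.33), Slc7a11 (-1.1), Chac1 (-1.02), Gars (-0.88) and Asns (-0.41) were negative, Trib3 (-0.19) was not called, and Tnfaip3 (0.3) was positive. The letters TTGCATCA, or their reverse complement TGATGCAA, stand in Avil, Atf3, Got1, Chac1 and both sites of Slc7a11. They are not particular to large differences. Sites not printed hold them at Aars (-0.12, no call), Nupr1 (-0.27) and Iars (-0.36) as well as at Herpud1 (-1.28).
Avil, chr10:127000681-127000710, plus strand: gaatgtggttaTGATGCAAacacaagcaaa
Atf3, chr1:191183425-191183454, minus strand: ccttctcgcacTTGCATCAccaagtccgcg
Got1, chr19:43524689-43524718, minus strand: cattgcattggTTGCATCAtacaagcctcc
Slc7a11, chr3:50443642-50443671, minus strand: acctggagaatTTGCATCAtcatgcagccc
Slc7a11, chr3:50443661-50443690, minus strand: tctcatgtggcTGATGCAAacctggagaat
Chac1, chr2:119351038-119351067, plus strand: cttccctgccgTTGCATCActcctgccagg
Gars, chr6:55037960-55037989, plus strand: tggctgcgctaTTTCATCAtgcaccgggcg
Asns, chr6:7693214-7693243, minus strand: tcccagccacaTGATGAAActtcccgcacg
Trib3, chr2:152344028-152344057, minus strand: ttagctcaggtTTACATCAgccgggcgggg
Tnfaip3, chr10:19011967-19011996, minus strand: atctttaaaagTGATGTAActtagaacagt

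The region before the Atf3 start, 250 bases up to the start with the motif in capitals, is shown because this gene combines the motif with a large negative difference and a high level under stress.
Atf3 upstream, chr1:191183334-191183583, minus strand: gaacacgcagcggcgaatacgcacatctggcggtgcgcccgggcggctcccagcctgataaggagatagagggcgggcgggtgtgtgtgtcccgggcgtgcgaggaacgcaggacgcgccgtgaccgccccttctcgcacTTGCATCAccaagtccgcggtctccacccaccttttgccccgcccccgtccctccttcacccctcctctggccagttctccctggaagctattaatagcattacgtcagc

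ER chaperones and folding enzymes rose in both populations and rose less in knockdown cells. Of 18 tested 17 were negative and none positive, with a median difference of -0.6 and median thapsigargin effects of 2.17 in control and 1.46 in knockdown cells. Fkbp2 had no call (-0.17). Hspa5, which encodes BiP, the main Hsp70 of the ER, held 1636.9, 1707.6 and 1748.3 CPM in control DMSO and 21085.7, 20515.0 and 20560.7 CPM with thapsigargin. Knockdown cells held 1277.8, 1293.1 and 1321.5 CPM in DMSO and 10904.0, 10933.0 and 10382.4 CPM with thapsigargin. The difference of -0.56 (SE 0.06, adjusted p = 2.05e-09) is modest on the log2 scale. In CPM it was -9580.5, the largest in size among protein-coding genes with a called difference. Hsp90b1, the gene of the ER Hsp90 GRP94, rose to 3893.1, 3736.3 and 3912.9 CPM in control and 1816.2, 1815.8 and 1668.3 CPM in knockdown cells (-1.05, SE 0.06, adjusted p = 3.85e-15). Its DMSO levels lay between 570.4 and 631.9 CPM in all 6 libraries. Pdia4, a disulfide isomerase gene, rose from 245.4, 264.3 and 268.7 to 1862.3, 1872.7 and 1913.2 CPM in control cells and from 225.6, 230.7 and 222.7 to 728.7, 737.5 and 718.9 CPM in knockdown cells (-1.17, SE 0.06, adjusted p = 9.73e-17).

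Genes that export and degrade misfolded ER proteins were negative at 10 of 14, and translocon and secretory traffic genes at 19 of 25, with no positive call in either (medians -0.29 and -0.26). With gene read totals alone these counts were 6 and 12. Sel1l, the scaffold gene of the HRD1 ubiquitin ligase, rose from 150.2, 160.5 and 161.7 to 957.5, 972.1 and 979.3 CPM in control cells and from 118.1, 112.0 and 128.5 to 278.6, 262.1 and 260.5 CPM in knockdown cells (-1.46, SE 0.07, adjusted p = 7.11e-18). Herpud1, which also stands in the ATF4 and CHOP list, differed by -1.28, Syvn1, the ligase itself, by -0.94, and Edem1, a mannosidase-like factor, by -0.92. Sec61a1, the pore of the translocon, rose from 354.7, 356.7 and 353.8 to 822.7, 836.2 and 841.9 CPM in control cells and from 297.4, 297.1 and 298.4 to 502.7, 456.1 and 461.6 CPM in knockdown cells (-0.56, SE 0.06, adjusted p = 2.92e-09).

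The stress sensors were less uniform. Of 14 tested, 5 were negative and 1 positive, with a median of -0.09 that turned to 0.07 with gene read totals alone. Ern1, which encodes IRE1 alpha, rose from 44.5, 39.9 and 41.1 to 132.8, 137.2 and 137.7 CPM in control cells and from 38.5, 38.4 and 43.3 to 69.8, 62.1 and 61.2 CPM in knockdown cells (-1.02, SE 0.08, adjusted p = 4.8e-12). Atf6, the Golgi-cleaved sensor, differed by -0.73 and Eif2ak3, the PERK gene, by -0.23. Xbp1, the IRE1 target, was the positive member: it rose by 1.65 in control and 1.98 in knockdown cells (0.34, SE 0.06, adjusted p = 1.57e-05). Its mean was lower in knockdown cells in both treatments, at 126.7 against 201.4 CPM in DMSO and 500.3 against 630.2 CPM with thapsigargin. These counts cover all Xbp1 reads and do not separate its spliced form.

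The ER stress element, searched as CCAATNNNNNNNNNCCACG on both strands, was in 20 of the 14340 windows (0.139%). Of those, 10 belonged to negative genes (0.361% of their windows), 10 to genes without a call (0.115%) and 0 to positive genes. At a log2 difference of -1 or less it was in 1 of 503 windows (0.199%). Among genes that rose in control cells without a called difference it was in 0.184%. In the chaperone list 7 genes had it and all were negative (median -0.64), 8 genes had a window without it and 7 of these were negative (median -0.6). The composite element was in none of the 15 chaperone genes with a window. The cAMP response element TGACGTCA was in 2.85% of all windows, 2.93% for negative and 2.74% for positive genes. Sites of 4 genes are shown because they carry this second motif without a composite element. Capitals mark the element from its first to its last letter.
Hspa5, chr2:34772020-34772048, plus strand: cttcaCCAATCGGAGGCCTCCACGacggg
Hsp90b1, chr10:86705528-86705556, minus strand: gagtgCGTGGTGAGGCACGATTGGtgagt
Hsp90b1, chr10:86705633-86705661, minus strand: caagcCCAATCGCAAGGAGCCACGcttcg
Dnajc3, chr14:118937822-118937850, plus strand: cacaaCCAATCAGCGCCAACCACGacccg
Syvn1, chr19:6046527-6046555, plus strand: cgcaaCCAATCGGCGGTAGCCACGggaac

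The region before the Hspa5 start, with the element in capitals, is shown because this gene has the largest difference in CPM among called protein-coding genes.
Hspa5 upstream, chr2:34771840-34772089, plus strand: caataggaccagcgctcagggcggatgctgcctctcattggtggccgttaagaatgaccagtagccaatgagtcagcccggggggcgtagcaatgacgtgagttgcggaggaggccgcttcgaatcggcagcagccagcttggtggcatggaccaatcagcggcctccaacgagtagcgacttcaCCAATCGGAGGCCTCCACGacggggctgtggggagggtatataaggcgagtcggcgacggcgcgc

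Antioxidant genes of the NRF2 group were negative at 12 of 16 with none positive (median -0.53). Hmox1, the haem oxygenase gene, was at 52.9, 53.6 and 53.2 CPM in control DMSO and 625.8, 637.5 and 666.8 CPM with thapsigargin. Knockdown cells started higher, at 130.9, 151.6 and 139.9 CPM, and ended lower, at 411.2, 421.3 and 447.5 CPM, so the difference of -2.0 (SE 0.07, adjusted p = 1.31e-20) came from both treatments. Txnrd1, the thioredoxin reductase gene, rose by 0.85 in control cells, against 0.07 without a call in knockdown cells. Gsta4, a glutathione transferase gene, had a mean of 128.7 CPM in control DMSO, 128.5 CPM with thapsigargin and 128.8 CPM in knockdown DMSO, and fell to 55.4 CPM in knockdown cells with thapsigargin (-1.22). Nqo1, a quinone reductase gene, fell by 0.42 on the log2 scale in control and by 1.09 in knockdown cells. Mitochondrial chaperones and proteases were negative at 7 of 12 and positive at 1 (median -0.3). Lonp1, the matrix protease gene, rose from 138.6, 137.3 and 143.7 to 454.9, 441.7 and 458.0 CPM in control cells and from 134.7, 139.7 and 127.5 to 206.5, 206.5 and 210.4 CPM in knockdown cells (-1.06, SE 0.06, adjusted p = 2.21e-15). Hspd1, the gene of Hsp60, rose by 0.29 in control cells and fell by 0.57 in knockdown cells.

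Mitochondrially encoded respiratory chain genes mostly fell in both populations and fell more in knockdown cells. Of 10 tested 7 were negative and none positive (median -0.39), and mt-Co2, mt-Co3 and mt-Atp6, the members without a call, were each under 1 CPM in every group. mt-Nd5, a complex I subunit gene, was at 1547.9, 1465.2 and 1572.5 CPM in control DMSO and 1229.6, 1191.4 and 1114.0 CPM with thapsigargin, and at 1711.8, 1818.9 and 1806.7 and then 979.1, 1030.8 and 849.1 CPM in knockdown cells (-0.53, SE 0.08, adjusted p = 2.61e-06). mt-Co1, a complex IV subunit gene, differed by -0.39 (SE 0.06), which is -2482.4 in CPM. Among 20 cytosolic ribosomal protein genes 7 were negative and none positive, with a median of -0.13 that turned to 0.02 with gene read totals alone. That count moved from 4 to 13 with single libraries left out, being 13 without the third control thapsigargin library, and Rps4x (-0.31, adjusted p = 0.000632) lost its call with gene read totals alone (-0.15, adjusted p = 0.06).

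Cytosolic heat shock genes were negative at 6 and positive at 3 of 14, with a median of -0.09 that turned to 0.07 with gene read totals alone. Hsph1, an Hsp110 gene, was at 241.3, 257.1 and 276.2 CPM in control DMSO and at 375.4, 404.3 and 399.1 CPM in knockdown DMSO. With thapsigargin it was alike in both, at 151.6, 155.5 and 160.7 CPM in control and 151.1, 159.4 and 158.3 CPM in knockdown cells (-0.6, SE 0.07, adjusted p = 7.55e-09). Its difference thus came from the DMSO levels. Autophagy genes were negative at 3 and positive at 3 of 17 (median -0.02, 0.14 with gene read totals alone), a share near the 17.7% of all genes called in each direction. Sqstm1, the p62 receptor gene, differed by -0.68. Tfeb, a regulator of lysosomal genes, was at 9.82, 11 and 9.42 CPM in control DMSO, 4.34, 4.68 and 5.23 CPM with thapsigargin, and 7.99, 9.64 and 9.2 and then 6.7, 7.13 and 8.08 CPM in knockdown cells (0.79, SE 0.15, adjusted p = 8.42e-05).

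Genes known as p53 targets were negative at 8 and positive at 3 of 18, with a median of -0.14 that turned to 0.02 with gene read totals alone. Rrm2b, the p53-induced ribonucleotide reductase subunit gene, rose from 28.8, 28.2 and 34.4 to 112.5, 105.1 and 122.0 CPM in control cells and only from 20.3, 19.6 and 19.2 to 26.9, 27.8 and 26.3 CPM in knockdown cells (-1.44, SE 0.1, adjusted p = 2e-13). Mdm2, the p53 ubiquitin ligase gene, differed by -0.5 and Fas, a death receptor gene, by 0.72, while Cdkn1a, the p21 gene, had no call (0.14, adjusted p = 0.0731). Immediate early genes went both ways, with 9 negative and 5 positive of 19 and a median of 0.01 that changed sign under several settings. Ier3, an early survival gene, rose from 70.7, 73.5 and 68.9 to 201.5, 207.2 and 202.2 CPM in control cells and from 134.0, 145.4 and 144.0 to 174.9, 167.7 and 165.5 CPM in knockdown cells (-1.26, SE 0.06, adjusted p = 7.03e-17). Fos, a subunit of AP-1, differed by -0.82, whereas Fosl2 (1.08) and Jun (0.86), of the same dimer family, were positive. Fosl2 stayed at a mean of 111.9 and 111.2 CPM in control cells and rose from 109.8 to 231.5 CPM in knockdown cells.

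Other basic leucine zipper factors of the ATF, CREB and small Maf groups were negative at 5 and positive at 1 of 17, with a median of -0.1 that turned to 0.06 with gene read totals alone. Mafk, which encodes a small Maf partner of NRF2, shows how the scale matters. It rose from 22.2, 21.4 and 21.6 to 73.5, 70.2 and 77.6 CPM in control cells and from 42.8, 49.6 and 42.5 to 97.3, 103.6 and 103.5 CPM in knockdown cells. The difference was -0.59 on the log2 scale (SE 0.08, adjusted p = 6.25e-07) but 4.45 in CPM. Creb5 was the positive member (0.33).

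Inflammatory genes split. Of 25 tested, 6 were negative and 9 positive, with a median of 0.16. Lcn2, which encodes an iron-carrier-binding secreted protein, was at 0.35, 0.0859 and 0.231 CPM in control DMSO and 9.13, 8.47 and 10.3 CPM with thapsigargin, and at 0.453, 0.648 and 0.492 and then 1.76, 1.43 and 1.29 CPM in knockdown cells (-3.88, SE 0.41, adjusted p = 3.17e-09). Icam1, an adhesion molecule gene, was at 5.34, 4.38 and 5.71 CPM in control and 2.5, 1.68 and 2.38 CPM in knockdown cells with thapsigargin. Control DMSO libraries held 2 Icam1 reads in all, so its fitted difference of -4.23 (SE 0.83, adjusted p = 0.000113) depends on the model's prior and gives no bound. Ptgs2, the COX-2 gene, rose from a mean of 168.3 to 1822.4 CPM in control cells and from 670.6 to 2000.7 CPM in knockdown cells (-1.86, SE 0.11), ending alike from different starts. Il6 differed by -1.62. The chemokine genes Ccl2 (0.95) and Ccl7 (0.74) and the NF-kappa-B inhibitor gene Nfkbia (0.66) fell with thapsigargin in both populations and fell less in knockdown cells. Interferon response genes were negative at 5 and positive at 1 of 24 (median -0.36). The other 18 had no call, and the negative share is near the 17.7% of all genes tested. Ifi44 was at 0.583, 0.945 and 1.04 CPM in control DMSO and 7.68, 8.1 and 9.41 CPM with thapsigargin (-2.56, SE 0.4, adjusted p = 4.15e-06). It lay between 0.354 and 0.842 CPM in all 6 knockdown libraries, where a small rise with thapsigargin was called (log2 0.73, adjusted p = 0.0428).

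Sterol genes were negative at 12 and positive at 3 of 22 (median -0.32). Their median thapsigargin effects were -0.54 in control and -0.83 in knockdown cells. Unlike the median of the list, Mvd, an enzyme gene of the mevalonate path, rose in control cells, by 0.93 against -0.15 in knockdown cells. Mvk (0.55), Dhcr7 (0.32) and Tm7sf2 (0.57) were positive. Glycolysis and hypoxia genes were negative at 4 and positive at 4 of 20 (5 called in all without the first knockdown DMSO library), with a median of -0.06 that turned to 0.1 with gene read totals alone. Both shares are near the 17.7% of all genes called in each direction, so the counts say nothing particular of this list. Of its called members only negative ones are named here, as single genes. The positive ones are not named and reached at most 0.34, the highest value of the list. Slc2a1, the glucose carrier GLUT1 gene, was at 143.1, 147.5 and 139.5 CPM in control DMSO and 161.2, 155.3 and 171.7 CPM with thapsigargin, and went from 130.2, 132.5 and 124.4 to 50.5, 50.7 and 50.5 CPM in knockdown cells (-1.53, SE 0.07, adjusted p = 1.31e-18). Hk2, a hexokinase gene, had means of 248.7 and 118.6 CPM with thapsigargin (-1.41), and the hypoxia-linked Egln3 and Vegfa differed by -1.45 and -0.92. Gapdh (0.02), Pkm (-0.02) and Eno1 (-0.06), enzymes of lower glycolysis, had no call.

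Matrix genes were negative at 12 and positive at 4 of 23 (median -0.29, -0.19 without the third control thapsigargin library). Fbn1, which encodes the microfibril protein fibrillin-1, was at 262.4, 235.3 and 259.7 CPM in control DMSO and 303.9, 300.4 and 302.6 CPM with thapsigargin. In knockdown cells it fell from 245.5, 222.2 and 254.0 to 126.0, 109.7 and 115.0 CPM (-1.3, SE 0.07, adjusted p = 6.04e-15). Col3a1, the type III collagen gene, was positive at 0.46 (SE 0.1, adjusted p = 0.00126). It fell from 4185.8, 4309.9 and 4213.5 to 1233.9, 1170.7 and 1338.6 CPM in control cells and from a lower start of 2132.4, 1814.2 and 2150.7 to 864.2, 728.3 and 870.0 CPM in knockdown cells. Fstl1, a secreted glycoprotein gene, also fell less in knockdown cells on the log2 scale, from 1927.2, 1834.1 and 2023.1 CPM to 505.4, 481.7 and 496.6 CPM in control cells and from 993.2, 914.2 and 1016.6 to 310.5, 306.4 and 299.1 CPM in knockdown cells (0.29, SE 0.06, adjusted p = 0.000541). Thbs1, the thrombospondin-1 gene, fell less in knockdown cells (1.22). Integrins were negative at 5 and positive at 2 of 14 (median -0.17). Itga6, a laminin receptor subunit gene, was at 72.9, 69.4 and 75.5 CPM in control DMSO and 74.2, 75.0 and 68.9 CPM with thapsigargin, and went from 151.9, 145.0 and 156.8 to 59.8, 61.6 and 55.0 CPM in knockdown cells (-1.37, SE 0.07, adjusted p = 3.11e-16). Itga3 (1.04) and Itgb8 (1.24) were positive.

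Of the lists, the S phase list had the most positive calls. In it 16 of 22 were positive and 1, Cdt1 (-0.26), negative, with a median of 0.35 and median thapsigargin effects of -1.09 in control and -0.6 in knockdown cells. Ccne1, the cyclin E1 gene, fell from 51.6, 52.4 and 49.1 to 6.36, 7.43 and 6.27 CPM in control cells and from 65.4, 62.4 and 62.1 to 16.5, 15.8 and 15.5 CPM in knockdown cells (0.93, SE 0.1, adjusted p = 1.65e-09). The knockdown libraries with thapsigargin held more Ccne1 than the controls, without overlap, but they also started higher (log2 0.31 in DMSO, adjusted p = 2.31e-05), and the difference in CPM had the opposite sign (-3.04). Mcm6, a subunit of the replicative helicase, fell to a mean of 98.4 CPM in control and 148.9 CPM in knockdown cells from 264.1 and 223.8 CPM (0.84). The helicase genes Mcm3, Mcm4, Mcm5 and Mcm7 were positive too, between 0.48 and 0.65, and Mcm2 (0.14, adjusted p = 0.109) had no call. E2f1, the activator of such genes, differed by 0.68, whereas Pcna (0.08) and Rrm2 (0.11) had no call. Genes of G2 and mitosis were positive at 4 and negative at 2 of 19 (median 0.1), also near or under the 17.7% of all genes in each direction, and 15 were called with gene read totals alone. Bub1b, a spindle checkpoint gene, was the largest of them in size: it was at 120.1, 120.7 and 118.2 CPM in control DMSO, 98.9, 98.7 and 98.2 CPM with thapsigargin, 133.4, 130.3 and 126.9 CPM in knockdown DMSO and 84.5, 82.5 and 77.2 CPM in knockdown cells with thapsigargin (-0.4, SE 0.06, adjusted p = 4.93e-06).

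Myogenic regulators were positive at 7 and negative at 3 of 16 (median 0.27). Myf5, an early determination factor gene, rose in both populations, from 55.7, 61.6 and 68.0 to 248.1, 246.6 and 259.9 CPM in control cells and from 76.5, 72.5 and 71.8 to 420.1, 450.8 and 378.0 CPM in knockdown cells (0.47, SE 0.09, adjusted p = 8.92e-05). Myod1, its partner in determination, fell by 0.5 on the log2 scale in control and by 0.17 in knockdown cells (0.33). Id1, an inhibitor of these factors, fell from 210.3, 218.5 and 203.5 to 108.5, 113.6 and 102.9 CPM in control cells and from 220.5, 228.4 and 222.9 to 71.5, 73.3 and 66.9 CPM in knockdown cells (-0.71, SE 0.07, adjusted p = 2e-10). Muscle differentiation genes had 2 negative calls and no positive call among 15 (1 call without the second control DMSO library or without the first control thapsigargin library). The negative share of 13.3% is under the 17.7% of all genes tested, so the 2 calls are given as single genes. One was Tnnt2, the cardiac troponin T gene, at 49.2, 50.6 and 47.7 CPM in control DMSO, 62.3, 59.9 and 64.0 CPM with thapsigargin and between 73.0 and 88.3 CPM in the knockdown libraries (-0.39, SE 0.08, adjusted p = 0.000251). The other was Ttn, the titin gene (-0.38).

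Cytoskeletal genes driven by serum response factor were positive at 6 and negative at 2 of 17 (median 0.14). Ccn2, which encodes the secreted growth factor CTGF, fell from 369.5, 347.0 and 379.0 to 120.4, 119.4 and 120.0 CPM in control cells. In knockdown cells it held 430.6, 490.0 and 399.0 CPM in DMSO and 443.7, 554.4 and 504.4 CPM with thapsigargin, overlapping between the treatments (1.79, SE 0.11, adjusted p = 1.46e-09). The small rise in knockdown cells was called (log2 0.19, adjusted p = 0.0359), so that the direction was opposite to that in control cells. Ccn1, its close relative, had no call (0.04). Actg1, the gamma-actin gene, was positive at 0.26 (SE 0.06), with 1529.9, 1596.2 and 1585.8 CPM in control and 1611.3, 1685.0 and 1562.7 CPM in knockdown cells with thapsigargin, from DMSO levels of 3373.4, 3595.5 and 3444.0 and of 2957.0, 3082.6 and 2897.2 CPM. Actb (-0.09) had no call. Myl9, a myosin light chain gene, was positive at 0.67.

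Across all protein-coding genes, the most negative differences with a mean of at least 5 CPM in a group, called in each fit that left out 1 library, were those of Avil, Icam1, Als2cl, Cdsn, Lcn2 and Tfcp2l1. Avil, which encodes the actin-binding protein advillin, was at 1.49, 0.716 and 1.18 CPM in control DMSO and 68.4, 59.4 and 74.6 CPM with thapsigargin. The knockdown libraries were at 0.97, 0.943 and 0.81 CPM and then 1.41, 2.3 and 1.82 CPM (-4.88, SE 0.34, adjusted p = 1.87e-11). The induction of Avil thus fell from 5.9 to 1.01 on the log2 scale. Als2cl, related to the alsin gene, rose from 0.583, 0.286 and 0.52 to 9.39, 7.04 and 9.81 CPM in control cells and lay at 1.58, 1.65 and 1.94 and then 2.2, 2.2 and 1.64 CPM in knockdown cells, where the treatments overlapped (-4.0, SE 0.3, adjusted p = 1.53e-12). Tfcp2l1, a transcription factor gene of the grainyhead-related CP2 family, rose from 0.233, 0.201 and 0.202 to between 27 and 30.2 CPM in control cells and from 0.226, 0.295 and 0.376 to 3.2, 3.08 and 3.23 CPM in knockdown cells (-3.7, SE 0.41, adjusted p = 6.9e-09).

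The most positive differences by the same rule were those of Lrrc15, Cebpa, Cxcl12, Csf2rb, Pxylp1 and Cxcr6. Cxcl12, the chemokine gene of CXCR4, fell from 85.9, 85.5 and 95.8 to 13.5, 13.7 and 14.4 CPM in control cells and from 102.1, 101.7 and 103.3 to 65.8, 71.2 and 69.2 CPM in knockdown cells (2.11, SE 0.08, adjusted p = 3.82e-20). The loss under stress was smaller in the knockdown cells, which started higher (log2 0.2 in DMSO, adjusted p = 0.00105). Pxylp1, a xylosyl phosphatase gene of proteoglycan synthesis, also fell less there, from 71.1, 73.4 and 78.3 to 7.23, 7.74 and 6.6 CPM in control and from 62.4, 55.5 and 67.4 to 24.4, 25.0 and 24.8 CPM in knockdown cells (2.04, SE 0.1, adjusted p = 3.9e-17). Its knockdown level was lower in DMSO (log2 -0.27, adjusted p = 0.000404). For Lrrc15 and Csf2rb the knockdown cells were already lower in DMSO. Lrrc15, a membrane protein gene, was at 5.45, 4.78 and 5.06 CPM in control DMSO and between 0.455 and 1.13 CPM in every other library (2.52, SE 0.33, adjusted p = 2.54e-07). Csf2rb, a cytokine receptor subunit gene, went from 24.8, 24.5 and 25.3 to 2.51, 2.54 and 2.84 CPM and from 8.31, 7.1 and 8.65 to 3.7, 2.95 and 3.94 CPM (2.06, SE 0.16, adjusted p = 3.21e-12). Cxcr6, a chemokine receptor gene, fell from 2.83, 2.38 and 2.75 to 0.0964, 0.26 and 0.281 CPM and from 5.82, 7.13 and 6.28 to 1.65, 2.01 and 2.29 CPM (1.87, SE 0.34, adjusted p = 3.52e-05), which is a difference of -1.99 in CPM.

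**Figure D2:**
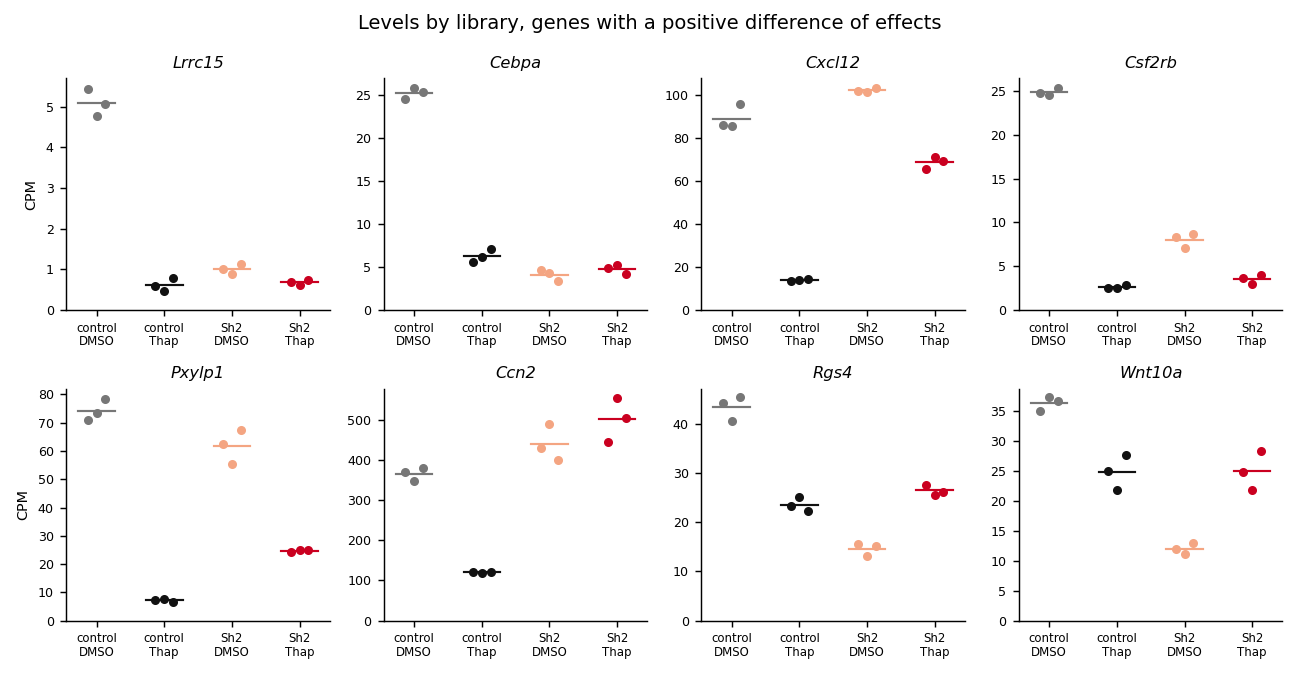
Level in CPM (vertical axes, starting at 0) of 8 genes with a positive difference of effects in each of the 12 libraries, 1 point per library with a line at the group mean. Cxcl12 and Pxylp1 fall less in knockdown cells (Sh2) and end higher there with thapsigargin, whereas Lrrc15 and Cebpa are already low there in DMSO.

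Some genes changed direction between the populations. Paqr3, a Golgi receptor-family gene, rose from 3.09, 3.35 and 3.81 to 15.0, 15.6 and 15.4 CPM in control cells and fell from 2.52, 2.62 and 2.78 to 1.7, 1.36 and 1.41 CPM in knockdown cells (-2.99, SE 0.19, adjusted p = 2.72e-14). Apcdd1, a Wnt inhibitor gene, rose from 7.37, 7.94 and 6.53 to 12.1, 14.1 and 13.2 CPM and fell from 11.9, 12.3 and 11.5 to 3.06, 3.21 and 2.67 CPM (-2.86, SE 0.15, adjusted p = 1.05e-16). Rgs4, a G protein signalling inhibitor gene, went the other way, falling from 44.1, 40.6 and 45.4 to 23.3, 25.1 and 22.2 CPM in control cells and rising from 15.5, 13.1 and 15.2 to 27.6, 25.5 and 26.2 CPM in knockdown cells (1.73, SE 0.1, adjusted p = 2.23e-15). Wnt10a, a Wnt ligand gene, fell from 35.1, 37.4 and 36.7 to 25.0, 21.9 and 27.7 CPM and rose from 12, 11.1 and 12.9 to 24.9, 21.8 and 28.3 CPM (1.61, SE 0.12, adjusted p = 1.29e-11). With thapsigargin the populations overlapped for Wnt10a, so that its difference came from the DMSO levels. Rgs4 too was much lower in knockdown cells in DMSO (log2 -1.57) and only slightly higher with thapsigargin (log2 0.16, adjusted p = 0.046).

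Markers of other cell types were low beside the myoblast markers. Leukocyte markers summed to between 3.81 and 8.99 CPM over all libraries and adipocyte markers to between 0.815 and 1.89 CPM. Epithelial markers summed to 14.7 to 17.2 CPM in control DMSO, 22.8 to 26.5 CPM with thapsigargin, 22.6 to 23.7 CPM in knockdown DMSO and 36.4 to 40.9 CPM in knockdown cells with thapsigargin. Krt19, a keratin gene, held most of that sum in DMSO and was the only member called, at 14.2, 16.5 and 14.4, then 11, 11.9 and 12.6 CPM in control cells and 22.5, 21.5 and 21.2, then 21.2, 25.0 and 21.6 CPM in knockdown cells (0.4, SE 0.11, adjusted p = 0.00465). Of the 6 epithelial markers tested, 4 had a difference below 0 and the median was -1.09, opposite in sign to Krt19, but 5 had no call. Endothelial markers summed to 4.19 to 5.14 and 27.7 to 32.5 CPM in control cells and 5.89 to 6.95 and 18.7 to 21.4 CPM in knockdown cells. Tek, the TIE2 receptor gene, made up most of this, with 21.0, 21.9 and 25.0 CPM in control and 12.7, 11.6 and 10.1 CPM in knockdown cells with thapsigargin, from 3.03, 4.33 and 4.22 and from 5.92, 4.54 and 5.5 CPM (-1.44, SE 0.17, adjusted p = 4.3e-08). Whether such markers play a part in the other differences was not tested.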

How the data were processed

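Poly(A) RNA of 12 C2C12 libraries was sequenced. Per the submitters' processing notes, reads were handled with Trim Galore, STAR 2.5.3a, bedtools 2.31.0 and DESeq2, with both mm10 and hg38 named. The authors deposited raw read counts per gene. The sources used here name no counter, annotation release or strand setting. Hence overlapping and antisense genes, and near-identical copies, are uncertain. Entries naming no gene held 13.32% to 14.61% of reads per library and were left out.

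Identifiers were named from GENCODE vM21 (GRCm38). Counts were fitted with edgeR 4.0.16 (R 4.3.3): its filter for low counts, TMM scaling and robust quasi-likelihood fits with 1 mean per group (8 residual degrees of freedom, common biological variation 4.67%). Adjusted p-values are Benjamini-Hochberg values over all 15828 genes tested, called under 0.05. An SE is the absolute log2 value divided by the square root of F, so it is approximate. Replicates differed by more than counting noise (chi-square per gene 2.51 to 9.83).

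The genes, 34 lists and comparisons were chosen with earlier results of these data known. Lists are described by counts and medians, with no test of the list. Genes named were the 6 most positive and 6 most negative protein-coding genes with a mean of at least 5 CPM in a group and a call in each of 12 fits leaving out 1 library. Further ones were the called member of largest size with at least 5 CPM in each list with 5 tested members, Cebpg, Atf4, Ddit3, Cebpb and Hspa5, 3 per direction with opposite thapsigargin effects, and 3 per direction with the largest difference in CPM. List members named beyond these were chosen after their values were seen. Promoter windows came from RefSeq (GRCm38.p6), read 5′ to 3′ on the gene's strand. The pipeline was tested on simulated data. The 22 alternatives were other scalings, filters, tools (DESeq2 1.42.0, limma-voom 3.58.1), thresholds, a replicate block and leaving out each library. Results of some genes and sites are not reported here.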

Additional observations from a re-analysis of the deposited data

Results flagged for a closer look

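The genes below are those named by rule whose thapsigargin effect differed between control and knockdown cells by the test of that difference itself. Each value is the log2 difference of the effects, knockdown minus control, with an adjusted p under 0.05 by edgeR over all genes tested.

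The most negative values were those of Avil (-4.88), Icam1 (-4.23), Als2cl (-4.0), Cdsn (-3.93), Lcn2 (-3.88), Tfcp2l1 (-3.7), Paqr3 (-2.99), Apcdd1 (-2.86) and Ifi44 (-2.56). They were followed by Cth (-2.2), Hmox1 (-2.0), Cebpg (-1.66), Slc1a5 (-1.55), Slc2a1 (-1.53), Sel1l (-1.46), Rrm2b (-1.44), Tek (-1.44), Itga6 (-1.37) and Fbn1 (-1.3). Values between -1.3 and -0.6 were those of Ier3 (-1.26), Ddit3 (-1.17), Pdia4 (-1.17), Lonp1 (-1.06), Hsp90b1 (-1.05), Ern1 (-1.02), Wars (-0.88), Id1 (-0.71), Atf4 (-0.68) and Hsph1 (-0.6). Smaller negative values were those of Mafk (-0.59), Sec61a1 (-0.56), Hspa5 (-0.56), mt-Nd5 (-0.53), Cebpb (-0.49), Bub1b (-0.4), mt-Co1 (-0.39), Tnnt2 (-0.39) and Rps4x (-0.31).

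The most positive values were those of Lrrc15 (2.52), Cebpa (2.2), Cxcl12 (2.11), Csf2rb (2.06), Pxylp1 (2.04), Cxcr6 (1.87), Ccn2 (1.79), Rgs4 (1.73) and Wnt10a (1.61). Smaller positive values were those of Ccne1 (0.93), Tfeb (0.79), Myf5 (0.47), Col3a1 (0.46), Krt19 (0.4), Fstl1 (0.29) and Actg1 (0.26).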

How the results depend on the processing

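Called genes numbered 5598, and between 4075 (adjusted p under 0.01) and 6889 (gene read totals alone) over the 22 alternatives. No gene called in the TMM fit was called with the opposite sign in any of them. With gene read totals alone there were 5205 positive and 1684 negative genes in place of 2794 and 2804, and 4478 of the calls were kept. TMM factors were 1.049 to 1.073 in knockdown cells with thapsigargin and 0.967 to 0.997 in the control libraries. Leaving out single libraries gave 5062 to 5446 called genes. All 55 named genes kept their direction throughout, and Rps4x alone lost its call, with gene read totals alone (-0.15). Medians of 7 lists changed sign with gene read totals alone. With a replicate block 5771 genes were called, and 5569 of the calls were kept. Same-numbered libraries correlated in their deviations from the group means between -0.03 and 0.077, and unlike-numbered ones between -0.085 and 0.08. With 3 libraries per group such weak correlations cannot decide whether the numbers pair the samples, and the labels do not say. Genes with few reads in DMSO, such as Icam1, limit how well a large difference can be sized.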
